A study of Canis lupus familiaris with 32 samples.

Results

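KIF5B and WNK1, 2 of the 5246 genes named on the array, were read by 3 of the 22176 probes of a two-color canine cDNA array, 1 probe for KIF5B (probe 14271) and 2 for WNK1 (probes 10859 and 16851), in 32 primary osteosarcomas of dogs. These are all the probes that carry 1 of both symbols in the platform annotation, which names 7694 probes. Short survivors (SS) were 16 dogs that lived under 6 months after diagnosis, and long survivors (LS) were 16 dogs that lived longer. The SS tumors comprised subgroup B (8 dogs) and the shorter-lived subgroup A (8 dogs), which the study formed by clustering these arrays on genes that differed between SS and LS. No dog had been treated before surgery, each array held 1 tumor, and all tumors were spontaneous. Whole frozen tumor was used, so fewer cells of a type and less RNA per cell cannot be told apart. Each tumor was set against a pool of RNA from all 32 tumors, so that 0 on the log2 scale is the nominal level of the pool. The ratios of many probes differed by the dye that the tumor carried (below), so 0 need not mark the same level for both dyes. The ratio compares 1 probe between tumors and gives no order of levels between probes.

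Both genes were chosen because measured values on these same arrays placed them among the genes higher in SS, and the subgroups came from the same values. The levels by survival group and subgroup are therefore given as a description, without a test. For the 3 probes, tests were run only on what did not choose the genes, which are the dye orientation, the clinical variables, the survival time inside each group and the correlation of the probes.

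KIF5B encodes the ubiquitous heavy chain of kinesin-1, a motor that walks along microtubules and carries mitochondria, vesicles and other cargo toward the cell periphery, mostly together with kinesin light chains that bind the cargo. WNK1 is a serine-threonine kinase whose catalytic lysine sits at an unusual place. It responds to chloride and cell volume and activates the kinases STK39 (SPAK) and OXSR1, which in turn control the cation-chloride cotransporters of the SLC12 family, while the ubiquitin ligase built from CUL3 and KLHL3 removes WNK kinases.

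Tumor RNA carried Cy5 on 16 arrays (the Cy5 arrays) and Cy3 on 16 (the Cy3 arrays), 8 and 8 in SS as in LS, with 5 Cy5 and 3 Cy3 arrays in subgroup B and 3 Cy5 and 5 Cy3 arrays in subgroup A. The median ratio of an array lay between -0.03 and 0.02 and the SD over its probes between 0.474 and 0.762. No value of the 3 probes was missing. A Cy5 and a Cy3 array had a median correlation of -0.26 over all probes, and the lowest correlation of 2 arrays of the same orientation was 0.0242 for Cy5 and 0.00406 for Cy3. Subgroup B minus subgroup A, taken over all probes in the Cy5 and in the Cy3 arrays, correlated at -0.03 between the orientations and had the same sign for 55.1% of the probes. COL2A1, a chondrocyte marker, was read by probes 9560 and 19218. Tumors with a chondroblastic component minus the others gave -0.66 and -0.07 in the Cy5 arrays, and 0.61 and 0.34 in the Cy3 arrays. The direction tumor over pool rests on the switching of the dye-swapped arrays that the methods state, and was not settled from the data. For the 3 probes, the values of both orientations are given side by side.

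KIF5B was above 0 in all 8 tumors of subgroup B and in 2 of 8 tumors of subgroup A and 2 of 16 LS tumors. Those of subgroup A and LS were all Cy3 tumors (4 of 13, against 0 of 11 Cy5 tumors). In subgroup B the log2 ratios were 1.03, 1.04, 0.78, 0.42 and 0.36 in the Cy5 tumors 3, 4, 5, 7 and 8, and 1.02, 1.79 and 1.43 in the Cy3 tumors 10, 11 and 12. In subgroup A they were -0.80, -0.90 and -0.85 in the Cy5 tumors 1, 2 and 6, and -0.25, -0.35, -0.25, 0.39 and 0.31 in the Cy3 tumors 9, 13, 14, 15 and 16. LS tumors had a lowest value of -1.18, a median of -0.90 and a highest value of -0.36 in Cy5, and -0.70, -0.25 and 0.21 in Cy3. Every tumor of subgroup B lay above every LS tumor, and within each orientation it lay above every tumor of subgroup A and LS as well. Subgroup A and LS overlapped widely.

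The mean log2 ratio of KIF5B was 0.98 ± 0.48 in subgroup B (SD, n = 8), -0.34 ± 0.50 in subgroup A (SD, n = 8) and -0.58 ± 0.44 in LS (SD, n = 16). Subgroup B exceeded subgroup A by 1.32 (SE 0.23), a fold of 2.50, and by 1.51 (SE 0.15) with the orientation in the model. It exceeded LS by 1.57 (SE 0.19), a fold of 2.96. Subgroup A differed from LS by 0.24 (SE 0.19). The gap between SS (0.32 ± 0.83, SD, n = 16) and LS of 0.91 (SE 0.23), or 1.87-fold, lay mostly in subgroup B, and SS had 3.53 times the variance of LS. Within the orientations SS minus LS was 1.06 in Cy5 and 0.76 in Cy3. With the sign of the Cy3 arrays turned, SS minus LS was 0.15 and subgroup B minus subgroup A 0.22.

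**Figure D1:**
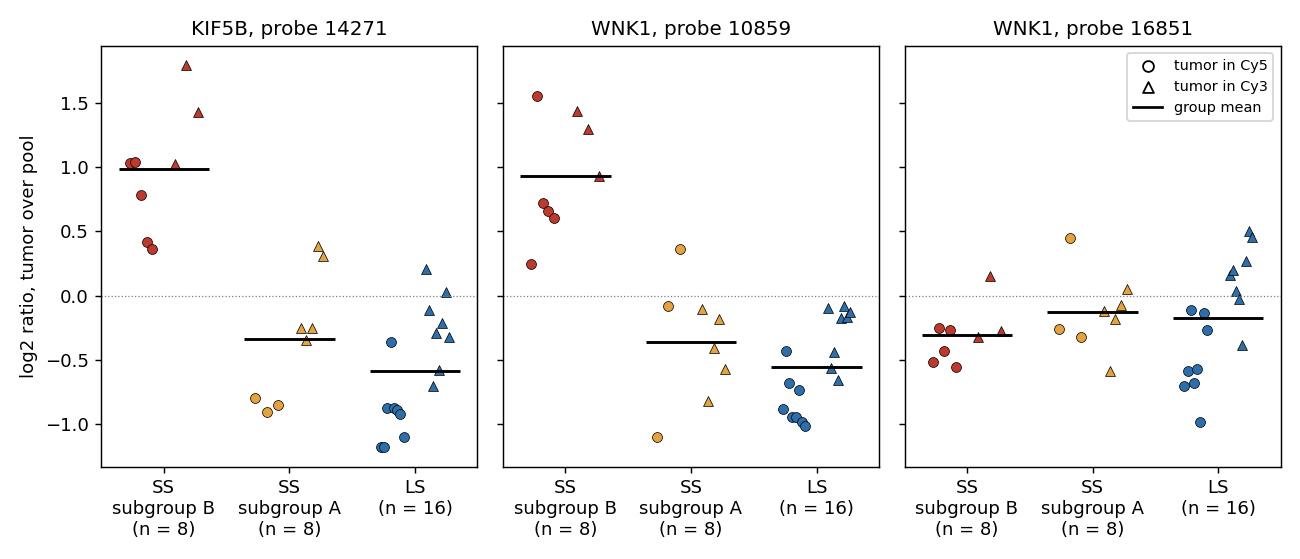
Log2 ratio of tumor over pool (vertical axis) of the KIF5B probe and both WNK1 probes, 1 point per tumor, in SS subgroup B, SS subgroup A and LS. Circles are tumors labeled with Cy5, triangles tumors labeled with Cy3, and bars the group means. For KIF5B and WNK1 probe 10859 the 8 tumors of subgroup B lie above all 16 LS tumors, whereas for WNK1 probe 16851 the groups overlap and the Cy5 and Cy3 tumors of LS are apart.

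WNK1 had a similar pattern at probe 10859. The log2 ratios in subgroup B were 0.25, 1.55, 0.72, 0.66 and 0.60 in the Cy5 tumors 3, 4, 5, 7 and 8, and 1.43, 1.30 and 0.93 in the Cy3 tumors 10, 11 and 12. In subgroup A they were -1.10, -0.08 and 0.36 in the Cy5 tumors 1, 2 and 6, and -0.10, -0.82, -0.41, -0.18 and -0.57 in the Cy3 tumors 9, 13, 14, 15 and 16. LS tumors had a lowest value of -1.02, a median of -0.91 and a highest value of -0.43 in Cy5, and -0.66, -0.17 and -0.08 in Cy3. All 8 tumors of subgroup B again lay above all 16 LS tumors, while 1 tumor of subgroup A (tumor 6) lay above the lowest of subgroup B (tumor 3).

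The mean log2 ratio at WNK1 probe 10859 was 0.93 ± 0.46 in subgroup B (SD, n = 8), -0.36 ± 0.46 in subgroup A (SD, n = 8) and -0.56 ± 0.35 in LS (SD, n = 16). Subgroup B exceeded subgroup A by 1.29 (SE 0.22), a fold of 2.45, and LS by 1.49 (SE 0.16), a fold of 2.81. Subgroup A differed from LS by 0.20 (SE 0.16). SS averaged 0.28 ± 0.80 (SD, n = 16), and SS minus LS was 0.84 (SE 0.21), or 1.79-fold. Within the orientations it was 1.20 in Cy5 and 0.49 in Cy3. With the sign of the Cy3 arrays turned, SS minus LS was 0.35 and subgroup B minus subgroup A -0.14, the opposite direction. For KIF5B and for WNK1 probe 10859 alike, the mean of LS was exceeded by 13 of 16 SS tumors, all 8 of subgroup B and 5 of 8 of subgroup A.

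The other WNK1 probe showed none of this separation. At probe 16851 the log2 ratios in subgroup B were -0.52, -0.25, -0.43, -0.27 and -0.55 in Cy5 and -0.32, 0.16 and -0.27 in Cy3. In subgroup A they were -0.26, 0.45 and -0.33 in Cy5 and -0.12, -0.59, -0.18, -0.08 and 0.05 in Cy3. LS ran from -0.98 over a median of -0.58 to -0.11 in Cy5 and from -0.38 over 0.18 to 0.50 in Cy3. The means were -0.31 ± 0.22 in subgroup B (SD, n = 8), -0.13 ± 0.30 in subgroup A (SD, n = 8) and -0.18 ± 0.44 in LS (SD, n = 16), and 11 of 16 LS tumors lay above the lowest tumor of subgroup B. SS minus LS was -0.04 (SE 0.13). The level of WNK1 in SS relative to LS therefore depended on the probe. Where on the transcript each probe lies was not analysed here, and KIF5B had 1 probe, so that no second probe could be set beside it.

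As a background to these counts, 285 of 22176 probes (1.29%) had SS over LS by a fold of 1.4 or more, as 2 of the 3 probes did, and KIF5B and WNK1 probe 10859 stood at rank 62 and 72 of all probes by SS minus LS. In 19 probes (0.0857%) every tumor of subgroup B lay above every LS tumor, as at 2 of the 3 probes. In 34 probes (0.153%) every tumor of subgroup B lay above every other tumor within each orientation, as at 1 of the 3 probes. The genes were chosen on this contrast, so nothing is read from these shares. They also rest on the direction of the Cy3 arrays. With the sign of those arrays turned, the ranks were 4676 and 1270, 815 probes (3.68%) reached the fold of 1.4, and 9 probes had every tumor of subgroup B above every LS tumor, with none of the 3 probes in either set.

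All 8 tumors of subgroup B were above 0 for both KIF5B and WNK1 probe 10859. Of the 16 LS tumors and the 8 tumors of subgroup A, 0 and 0 were above 0 for both. The genes and the subgroups came from these same values, so the shared high ratios in subgroup B follow from the choice. Outside subgroup B the tumors above 0 differed. They were tumors 15 and 16 of subgroup A (0.39 and 0.31) and LS tumors 21 and 27 (0.21 and 0.03) for KIF5B. For WNK1 probe 10859 it was tumor 6 of subgroup A (0.36). With the ratios centered within survival group and orientation, both probes correlated at r = 0.73 over the 32 arrays, which placed WNK1 at rank 29 of all probes by likeness to KIF5B. This value carries no test, because the SS tumors form separate clusters.

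**Figure D2:**
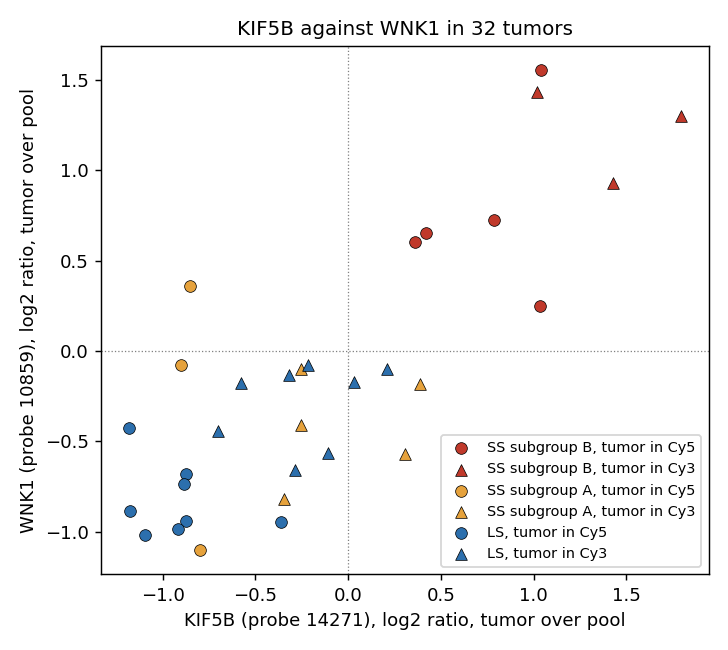
Log2 ratio of KIF5B (probe 14271, horizontal axis) against that of WNK1 (probe 10859, vertical axis), tumor over pool, 1 point per tumor, colored by SS subgroup B, SS subgroup A and LS, with circles for Cy5 and triangles for Cy3. The 8 tumors of subgroup B fill the upper right quadrant alone, and within LS, centered by orientation, r was 0.01.

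Inside the clusters no correlation of KIF5B with WNK1 probe 10859 passed the test. With both probes centered on the mean of each orientation, the correlation in LS was r = 0.01 and a Spearman correlation of 0.02 (permutation within orientation, 100000 resamples, two-sided, p = 0.98 and 0.937, n = 16), and without the 2 tumors farthest from the KIF5B median r was 0.01 (0.00845). Uncentered, the same 16 tumors gave r = 0.63, as Cy5 tumors were lower at both probes. Subgroup B gave r = 0.14 and a Spearman correlation of 0.14 (exact permutation within orientation, p = 0.785 and 0.764, n = 8), and r = 0.27 without the 2 farthest tumors. Subgroup A gave r = 0.05 and a Spearman correlation of 0.10 (exact permutation, p = 0.849 and 0.811, n = 8), and r = -0.03 without the 2 farthest tumors.

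Nor did any correlation between the 2 WNK1 probes, which read 1 gene. Their r was 0.05 in LS, 0.45 in subgroup B and 0.28 in subgroup A, and their Spearman correlations 0.15, 0.33 and 0.17 (permutation p for r = 0.866, exact permutation p = 0.258 and 0.726, n = 16, 8 and 8). Without the 2 farthest tumors r was 0.02, 0.19 and 0.62. KIF5B and WNK1 probe 16851 had r = 0.22 in LS, 0.52 in subgroup B and 0.37 in subgroup A, with Spearman correlations of 0.30, 0.83 and 0.45. The rank correlation of 0.83 had an exact permutation p of 0.0444 (n = 8), and 0.40 after Benjamini-Hochberg adjustment over the 9 relations, and its r fell to 0.19 without the 2 farthest tumors. After adjustment the lowest p of the 9 Pearson correlations was 0.896 by permutation.

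By the same centered ratios over 32 arrays, the 5 named genes most like KIF5B were REEP3, which keeps endoplasmic reticulum away from mitotic chromosomes (r = 0.88), BAZ1B, a chromatin remodeling protein (0.87), SRRM1 (0.81) and SON (0.80), both of nuclear speckles and RNA splicing, and ANKRD17, an ankyrin repeat protein (0.78). Most like WNK1 probe 10859 were ITSN2, an endocytic scaffold (0.89), SRRM1 (0.85), AKAP13, an anchoring protein of protein kinase A (0.85), RBBP6, a ubiquitin ligase that binds RB1 (0.85), and NR3C1, the glucocorticoid receptor (0.84). SRRM1 was the 1 gene on both lists. These arrays share the pool, the dyes and the 2 SS clusters, and the genes were taken from all named probes by this r, so the values are a description.

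At the 1 probe picked for each, all 9 of these genes averaged higher in subgroup B than in subgroup A and in LS. Of these 9 probes, 7 were among the 34 of 22176 (0.153%) with subgroup B above every other tumor within each orientation. SON had 5 probes, BAZ1B 4, ANKRD17 and ITSN2 3 each, and SRRM1, RBBP6, AKAP13 and NR3C1 2 each. Their other probes were not examined here, so the values below are of the picked probe alone. As the probes were picked for likeness to probes that vary mainly between B and A, their higher level in subgroup B follows from the choice. SRRM1 averaged 0.92 ± 0.36 in subgroup B, -0.36 ± 0.40 in subgroup A and -0.44 ± 0.50 in LS (SD, n = 8, 8 and 16), and ITSN2 averaged 0.87 ± 0.67, -0.47 ± 0.51 and -0.43 ± 0.70. REEP3 spanned less, with 0.47 ± 0.31, -0.28 ± 0.19 and -0.19 ± 0.22. The levels of NR3C1 and AKAP13 in subgroup B (0.59 ± 0.28 and 0.54 ± 0.54) were not clear of every other tumor within each orientation. The genes most like WNK1 probe 16851 were others and less close. They were NHSL1 (r = 0.65), LOC478720 (0.64), ARHGDIB (0.64), PIGF, of GPI anchor synthesis (0.64), and SRGN, the granule proteoglycan serglycin (0.62), and without centering r fell to -0.14 for NHSL1.

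Of the 3 probes, 2 differed between the dye orientations, which held different tumors. With survival group in the model, Cy5 tumors were lower than Cy3 tumors by 0.53 for KIF5B (SE 0.21, limma adjusted p = 0.0331) and by 0.38 for WNK1 probe 16851 (SE 0.11, limma adjusted p = 0.00379). For WNK1 probe 10859 the difference was -0.18 (95% interval -0.61 to 0.25, limma adjusted p = 0.478). Over all probes 7224 of 22176 (32.6%) were lower in Cy5 at a limma adjusted p under 0.10, and 7047 were higher. A difference between the orientations was thus common on these arrays, and nothing is read from the count of 2. For KIF5B the Cy5 minus Cy3 difference was of similar size in each group, -0.69 in subgroup B, -0.82 in subgroup A and -0.68 in LS. For WNK1 probe 10859 it was -0.46, 0.14 and -0.54, and for probe 16851 it was -0.26, 0.14 and -0.66.

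Whether SS minus LS differed between the orientations was tested as an interaction. WNK1 probe 16851 passed, with SS minus LS of 0.24 in Cy5 and -0.32 in Cy3, a difference of 0.56 (SE 0.20, limma adjusted p = 0.0886). With arrays scaled to the same spread the adjusted p was 0.138, and with array weights 0.243. WNK1 probe 10859 had the larger difference, 0.71 (95% interval -0.13 to 1.55, limma adjusted p = 0.345), and KIF5B had 0.30 (-0.57 to 1.17, adjusted p = 0.748), neither past the threshold. Of all probes 1969 of 22176 (8.88%) passed in this direction and 415 in the other.

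**Figure D3:**
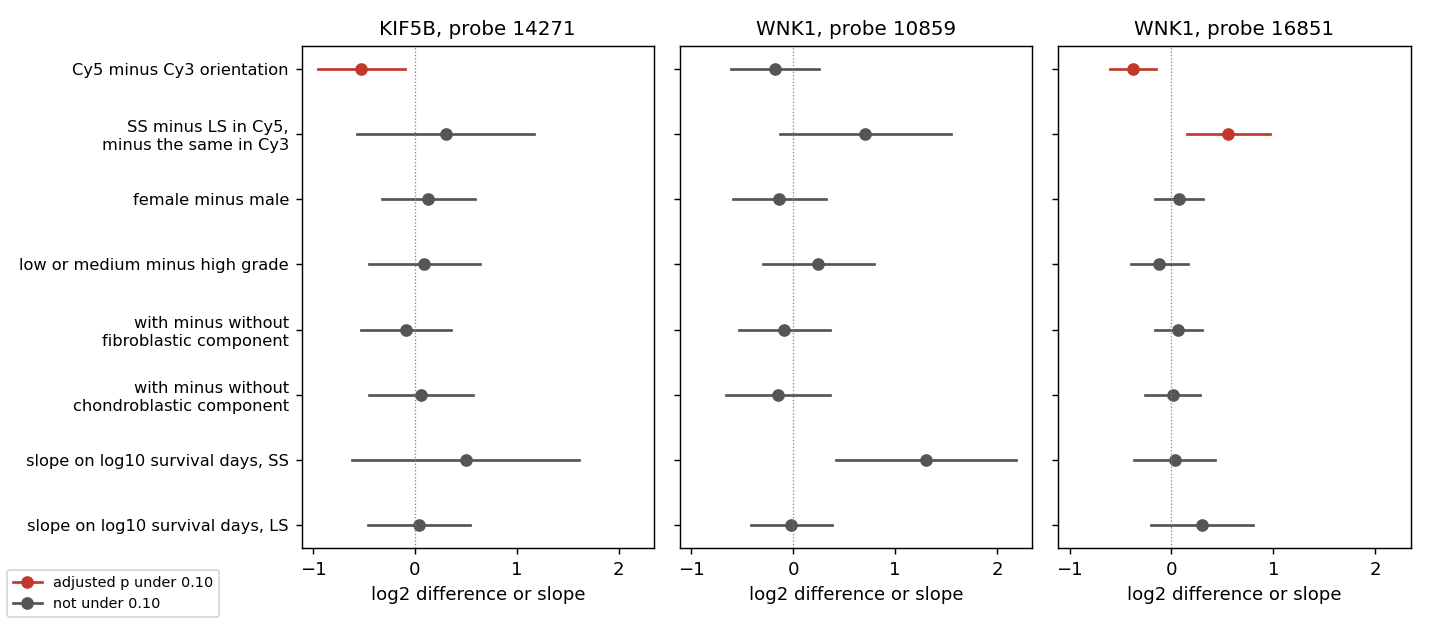
Estimates (points) and 95% intervals (lines) from limma for the KIF5B probe and both WNK1 probes, as log2 differences or, for survival, as log2 slopes per factor of 10 in days (horizontal axis). Red marks an adjusted p under 0.10, which the orientation reaches for KIF5B (-0.53) and for WNK1 probe 16851 (-0.38), and the interaction for WNK1 probe 16851 (0.56). The intervals for sex, grade and tissue type span 0.

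Sex, histological grade and the type of matrix showed no difference past the threshold for any of the 3 probes. With survival group and orientation in the model, females (14 dogs) minus males (18 dogs) gave 0.13 for KIF5B (95% interval -0.32 to 0.59), -0.14 for WNK1 probe 10859 (-0.59 to 0.32) and 0.07 for probe 16851 (-0.16 to 0.31). Low or medium (7 tumors) minus high grade (25 tumors) gave 0.09 (-0.45 to 0.64), 0.25 (-0.29 to 0.79) and -0.12 (-0.40 to 0.16). For grade, the interval of WNK1 probe 10859 thus reaches 0.79, close to its SS minus LS.

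Tumors with a fibroblastic component (16) minus those without (16) gave -0.09 for KIF5B (95% interval -0.53 to 0.35), -0.09 for WNK1 probe 10859 (-0.53 to 0.36) and 0.07 for probe 16851 (-0.16 to 0.30). A chondroblastic component (8 tumors with, 24 without) gave 0.06 (-0.45 to 0.57), -0.15 (-0.66 to 0.36) and 0.01 (-0.26 to 0.28). The lowest adjusted p of these 12 tests was 0.907 in limma. Among all probes limma called 0 of 22176 (0%) in each of these comparisons, with 1749, 876, 1574 and 443 probes at an unadjusted p under 0.05 for sex, grade, the fibroblastic and the chondroblastic component.

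Survival time inside SS was related to WNK1 probe 10859 before correction only. The slope was 1.31 log2 units per factor of 10 in days (SE 0.42, 95% interval 0.42 to 2.19, limma p = 0.00657, adjusted p = 0.327), in the direction of higher ratios in dogs that lived longer. KIF5B had a slope of 0.50 (-0.62 to 1.61, limma adjusted p = 0.799), and WNK1 probe 16851 of 0.03 (-0.37 to 0.43). Limma called 10 of 22176 probes (0.0451%) in this comparison. Subgroup B lived longer than subgroup A and held the high ratios, so the slope inside SS contains the gap between both. Survival times also served to work out which dogs belong to each subgroup. The gap in survival, and relations with survival inside each subgroup, are not free of that choice.

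Inside subgroup B, WNK1 probe 10859 and log10 days gave r = 0.79 and a Spearman correlation of 0.81 (exact permutation within orientation, p = 0.0931 and 0.0139, n = 8), which over 9 relations became 0.553 and 0.125. Without the 2 dogs farthest from the median survival r was 0.74. Inside subgroup A it gave r = 0.41 and a Spearman correlation of 0.50 (exact permutation, p = 0.161 and 0.206, n = 8), and r = 0.06 without the 2 farthest dogs. KIF5B gave r = -0.23 in subgroup B and -0.48 in subgroup A with Spearman correlations of 0.10 and -0.26 (exact permutation p for r = 0.683 and 0.45, n = 8 each), and without the 2 farthest dogs both signs turned (0.43 and 0.21). For probe 16851 r was 0.47 in subgroup B and -0.14 in subgroup A, with Spearman correlations of 0.43 and 0.19 (exact permutation p for r = 0.212 and 0.642, n = 8 each).

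In LS no relation with survival time passed the test for any of the 3 probes. The slopes were 0.04 for KIF5B (95% interval -0.46 to 0.54), -0.02 for WNK1 probe 10859 (-0.42 to 0.38) and 0.30 for probe 16851 (-0.20 to 0.80), and limma adjusted p values were 0.982, 0.991 and 0.849. The correlations were r = 0.05, -0.03 and 0.32 and Spearman correlations of -0.02, -0.04 and 0.25 (permutation p for r = 0.873, 0.916 and 0.246, n = 16). Without the 2 dogs farthest from the median r was -0.26, -0.33 and 0.16. Limma called 0 of 22176 probes (0%) here, with 1454 at an unadjusted p under 0.05.

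**Figure D4:**
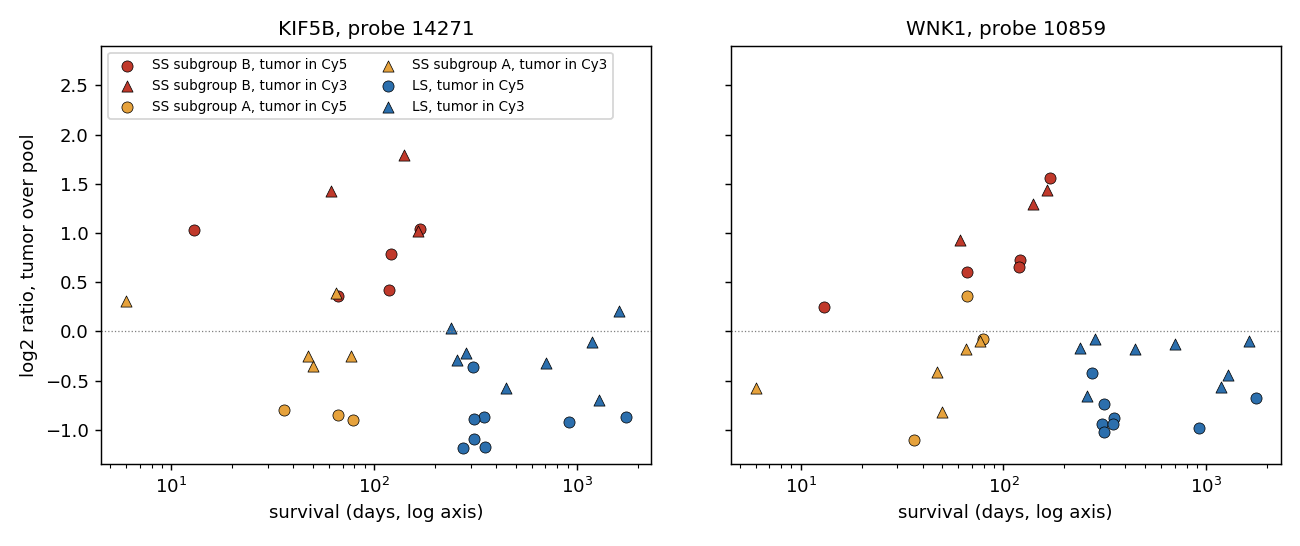
Log2 ratio of tumor over pool (vertical axis) of KIF5B and of WNK1 probe 10859 against survival in days (horizontal log axis), 1 point per dog, colored by SS subgroup B, SS subgroup A and LS, with circles for Cy5 and triangles for Cy3. The highest ratios belong to SS dogs of subgroup B, and ratios of LS dogs stay at or below 0.21 for KIF5B and -0.08 for WNK1 over the whole range of their survival.

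The genes that work with KIF5B were set beside it. Over all probes limma called 0 of 22176 (0%, 1581 at an unadjusted p under 0.05) between SS and LS, and 94 (0.424%, 46 higher and 48 lower) with the orientation as a block, so that counts of 0 in short lists are near this background and nothing is read from them. Of 26 genes listed as kinesin-1 subunits and cargo adaptors, 10 besides KIF5B were measured by 12 probes, and limma called 0 of them, whether or not the orientation was in the model. Their SS minus LS ran from -0.26 to 0.08 with a median of -0.08, against -0.000603 over all probes. The neuronal heavy chain KIF5A had -0.13 (SE 0.09) and -0.17 (SE 0.09) at its probes. The light chains had -0.23 (SE 0.11) for KLC1 and -0.26 (SE 0.16) for KLC4. Among 9 other kinesins (12 probes) SS minus LS ran from -0.14 to 0.37, among 19 dynein and dynactin genes (29 probes) from -0.13 to 0.29, and among 20 tubulin and microtubule-associated genes (29 probes) from -0.19 to 0.43, again with 0 calls in each list.

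The WNK cascade was treated alike. Of 43 listed genes, 10 besides WNK1 were measured by 13 probes, 0 were called by limma, 7 probes had a higher and 6 a lower mean in SS, and the median SS minus LS was 0.04. Over all 22176 probes, 11039 had a higher and 11137 a lower mean in SS, so nothing is read from this split. The paralog WNK4 had -0.13 (SE 0.13). STK39, the kinase that WNK1 activates, had -0.20 (SE 0.28), -0.01 (SE 0.28) and -0.04 (SE 0.08) at its 3 probes. Within the orientations these were -0.01, 0.42 and 0.11 in Cy5, and -0.40, -0.43 and -0.18 in Cy3. CUL3 had 0.10 (SE 0.13). The list reached from -1.02 to 0.32, and its lowest value was that of ITSN1 (SE 0.46, limma adjusted p = 0.654), a scaffold that WNK kinases use to lower a potassium channel at the cell surface, named here after its value was seen. OXSR1, KLHL3, SGK1, TRAK1, TRAK2 and the SLC12 transporters carried no named probe and were not analysed here.

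**Figure D5:**
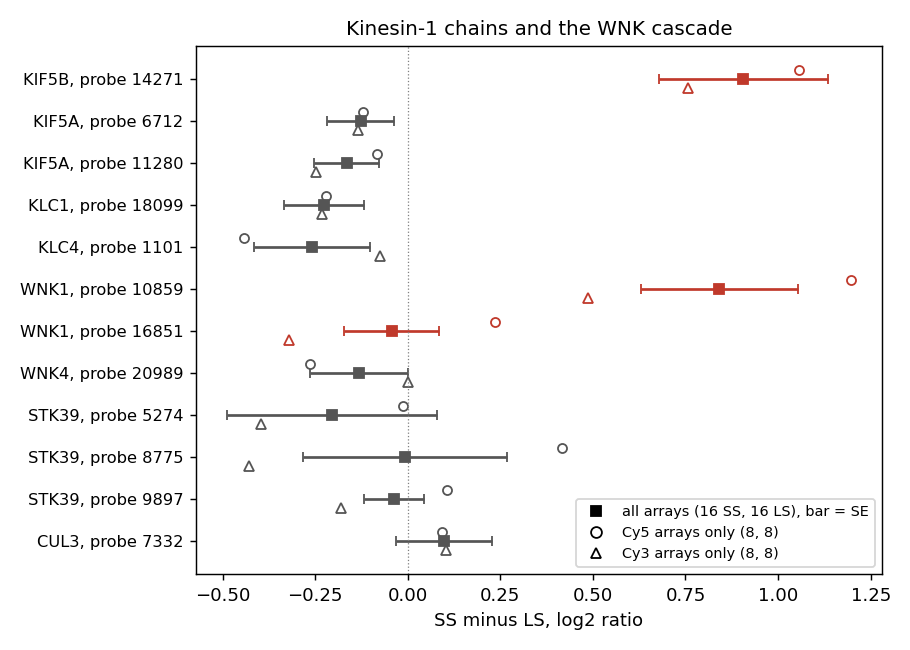
SS minus LS in log2 ratio (horizontal axis) for each probe of the kinesin-1 chains and of 4 genes of the WNK cascade. Squares use all arrays with the SE as bar, circles the Cy5 arrays and triangles the Cy3 arrays, and red marks KIF5B and WNK1. Over all arrays KIF5B and WNK1 probe 10859 lie at 0.91 and 0.84. The other probes drawn, those of KIF5A, KLC1, KLC4, WNK4, STK39, CUL3 and WNK1 probe 16851, lie between -0.26 and 0.10 over all arrays. Within the orientations some lie farther out, as STK39 probe 8775 at 0.42 in Cy5 and -0.43 in Cy3.

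Markers of other cells in these tumors were set beside the subgroups. Osteoclast markers (4 of 11 listed genes measured by 5 probes) were lower in subgroup B than in subgroup A at 5 of 5 probes with the orientation in the model. Over all probes, 10044 of 22176 were higher in subgroup B. The median B minus A was -1.07 against -0.02 over all probes. The probes were not alike, as 2 of them read CA2 (-1.54 and -1.07) and TNFRSF11A had -0.10. The mean of this list per tumor ran from -1.87 to 0.47 (median -0.67) in subgroup B, from -1.59 to 1.21 (median 0.60) in subgroup A and from -1.87 to 0.66 (median -0.29) in LS. Among the Cy5 tumors subgroup B (-1.87 to -0.01) lay wholly below subgroup A (0.17 to 1.21), while among the Cy3 tumors subgroup B (-0.69 to 0.47) and subgroup A (-1.59 to 0.94) overlapped. Endothelium markers (5 of 12 genes, 13 probes, several of them of PECAM1) had a median B minus A of 0.41. Their mean per tumor ran from -0.33 to 0.71 (median -0.14) in subgroup B, from -0.34 to -0.04 (median -0.21) in subgroup A and from -0.35 to 0.43 (median -0.08) in LS. The medians were -0.17 in subgroup B and -0.17 in subgroup A among the Cy5 tumors, and 0.03 and -0.25 among the Cy3 tumors.

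Chondrocyte markers (2 of 14 genes, 5 probes) had a median B minus A of 0.67, with a mean per tumor of -2.17 to 1.02 in subgroup B, -1.93 to -0.22 in subgroup A and -2.31 to 2.32 in LS. The orientations differed in direction, with medians of -0.48 in subgroup B and -1.64 in subgroup A among the Cy5 tumors, and of -1.85 and -0.53 among the Cy3 tumors. For osteoblast markers (4 of 14 genes, 6 probes) the median was -0.46, with -1.79 to 0.05 in subgroup B, -1.14 to 0.97 in subgroup A and -2.96 to 1.18 in LS. Leukocyte (11 probes), skeletal muscle (36 probes) and erythroid markers (1 probe) had medians of 0.06, 0.11 and -0.10. For leukocyte markers too the orientations differed in direction. Among the Cy5 tumors the median of the mean per tumor was -0.23 in subgroup B and 0.34 in subgroup A. Among the Cy3 tumors it was -0.12 and -0.32. As ratios to a pool of the same tumors, these values do not show whether a marker was present. The part of other cells in the levels of KIF5B and WNK1 was not tested.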

How the data were processed

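The deposited values are normalized log ratios, taken here as log2 of tumor over pool on all arrays. Before deposit the authors marked defective spots, normalized by print-tip Lowess, took logs and switched the data of dye-swapped arrays. The base of the logarithm is not given in the sources used here and was taken as 2 from the size of the values. The image analysis software is likewise not given, and signals above background were not analysed, so the number of arrays limits the precision. Nothing says that an array was repeated, so each tumor is 1 replicate.

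The rule for the probes and genes was every probe of KIF5B and WNK1, kinesin-1 chains, TRAK1, TRAK2, WNK kinases, STK39, OXSR1, SLC12 transporters, SGK1, CUL3 and KLHL3, and per probe the 5 named genes most alike. The members and lists were chosen with earlier results of these data known. Annotated symbols were used. Of the gene identifiers, those of 7340 probes, WNK1 among them, had a row in the RefSeq table, and KIF5B was matched by symbol. Subgroup membership is not in the sample labels. It was worked out from the survival times, sex, chemotherapy and grade of the dogs and the counts the study gives per subgroup. This left a single division of the SS tumors. As survival times entered it, survival in the subgroups is not independent of how the dogs were divided.

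Tests used limma 3.58.1 (lmFit, eBayes, two-sided) in R 4.3.3 over all 22176 probes, with Benjamini-Hochberg adjustment and a threshold of 0.10. Group, orientation or both were covariates. Correlations used permutations within orientation (SciPy 1.17.1, Python 3.11.15), and survival days were used without regard to censoring. Tested on simulated data, limma found 74 and 85 of 100 probes changed by 0.5 and by 1.0 for sex. For slopes of these sizes on survival in SS it found 15 and 68 of 100. The changed probes were drawn at random and the simulated noise was independent between probes. These rates therefore do not give the power at the KIF5B and WNK1 probes. Alternatives covered orientation, the sign of the Cy3 arrays, scaling, array weights, medians, covariates, subgroups and each array left out.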

Additional observations from a re-analysis of the deposited data

Results flagged for a closer look

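Among 24 groups of 5 to 8 tumors examined for the 3 probes, 3 held a tumor that stood apart by Dixon's criterion, which chance meets in about 1 of 20 groups. LS tumor 20 was the highest of the Cy5 tumors of LS for KIF5B, at -0.36 against -0.87 for the next. At WNK1 probe 16851, tumor 11 was the highest of subgroup B at 0.16, with -0.25 for the next, and tumor 2 was the highest of the Cy5 tumors of SS at 0.45, with -0.25 for the next.

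SS minus LS at WNK1 probe 16851 differed between the dye orientations by 0.56, the interaction that limma called. Both differences ran opposite ways, with 0.24 in Cy5 and -0.32 in Cy3, and its mean over both orientations was -0.04.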

How the results depend on the processing

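The limits are the number of arrays, the difference between dye orientations, subgroups that were formed on these arrays, and 1 probe for KIF5B. Leaving out each array in turn, SS minus LS stayed between 0.81 and 0.99 for KIF5B, 0.76 and 0.93 for WNK1 probe 10859 and -0.10 and 0.00 (0.00223) for probe 16851, and subgroup B minus subgroup A between 1.21 and 1.43, 1.19 and 1.396, and -0.24 and -0.09. With the sign of the Cy3 arrays turned, SS minus LS was 0.15 for KIF5B, against 0.91, and 0.35 for WNK1 probe 10859, and, chosen after seeing the data, subgroup B minus subgroup A was 0.22 for KIF5B and -0.14 for WNK1 probe 10859. Subgroup B or A in place of SS, also chosen then, gave 1.49 and 0.20 for WNK1 probe 10859, against 0.84. For KIF5B it gave 1.57 and 0.24, against 0.91, a similar shift. The interaction of WNK1 probe 16851 was 0.49 with scaled arrays and 0.36 with array weights, neither past the threshold, and the cause was not tested. Altogether 224 values moved by less than 1 SD or kept their side of the threshold. The correlations in LS without centering are the exception, as they had no test. The KIF5B values with subgroup B or A in place of SS are among these 224. Values that did not pass the threshold did not always keep their sign. Without centering, r in LS rose from 0.01 to 0.63 for KIF5B with WNK1 probe 10859. It rose from 0.22 to 0.69 for KIF5B with probe 16851, and from 0.05 to 0.63 for both WNK1 probes. No paired analysis was possible because SS and LS tumors share no number or animal.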

Other observations

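CLIP1, a protein that binds the growing ends of microtubules, was the member of the tubulin and microtubule list found among the probes that set subgroup B above every other tumor within each orientation, and was named after its values were seen. Its 4 probes gave subgroup B minus subgroup A, with the orientation in the model, of 0.73, 0.61, 0.26 and 0.05 on the log2 scale. SS minus LS was 0.28 (SE 0.15), 0.27 (SE 0.16), 0.31 (SE 0.18) and -0.06 (SE 0.06), with limma adjusted p values of 0.741 to 0.874. Within the orientations it was 0.47, 0.43, 0.66 and -0.01 in Cy5, and 0.08, 0.12, -0.03 and -0.11 in Cy3. As with WNK1, probes of 1 gene differed.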
